A study of Mus musculus with 8 samples.

Results

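Hox genes encode homeodomain transcription factors that give cells their position along the body axis. The mouse genes lie in 4 clusters, Hoxa, Hoxb, Hoxc and Hoxd, and were chosen here by symbol alone (Hoxa, Hoxb, Hoxc or Hoxd followed by a paralog number). By this rule 38 of the 20668 named genes on the array are described here, and they were measured by 41 of 55681 probes.

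The cells were 3T3-L1, a mouse fibroblast line able to differentiate into adipocyte-like cells, held for 1 week in adipogenic medium. They received, diluted 2-fold, medium conditioned by HL-60, a human myeloid leukaemia line. HL-60 cells had been transfected with a mock vector (control) or depleted of USP2, a ubiquitin-specific protease (knockdown), and both kinds had been held for 5 days with 30 nM PMA, a phorbol ester that turns them into macrophage-like cells. RNA was taken after 3 h or 6 h, which gave 4 groups (control 3 h, knockdown 3 h, control 6 h and knockdown 6 h) of 2 one-colour Agilent arrays each, and there were no arrays of cells without supernatant. The labels call the 2 arrays of a group biological replicates but do not say whether the supernatants were prepared separately, so a p-value here reflects the spread among these samples alone. USP2 was depleted in the human donor cells, so mouse arrays of the recipient cells give no check of the knockdown. The labels give 10% serum for all 8 samples.

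In development, Hox genes are switched on in the order in which they lie along each cluster, with low paralog numbers active towards the head and high numbers towards the tail and in the limbs. Adult fibroblasts and fat depots keep a Hox pattern that reflects where they came from. Trithorax complexes hold the active genes of a cluster open and Polycomb complexes hold the others silent, while TALE proteins of the Pbx, Meis and Pknox families bind DNA together with Hox proteins.

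On each array 50.7% to 55.9% of 59305 non-control spots were well above background, the scanner software's own call. No spot was saturated, and the correlation between the 2 arrays of a group was 0.988 to 0.998. Signals are given as log2 values relative to the 75th percentile of their array, so 0 is that percentile and a level says nothing about one gene against another. All 3 h arrays lay in row 1 of the slide and all 6 h arrays in row 2, with control in columns 1 and 2 and knockdown in columns 3 and 4. Time and slide row, and supernatant and slide columns, therefore cannot be told apart. The labels call the cells adipocytes, and 5 of 12 adipocyte markers were above background on all 8 arrays (Pparg, Cebpa, Fabp4, Fabp5 and Lpl), whereas 6, among them Adipoq and Cfd, were above background on none. All 7 preadipocyte and fibroblast markers were above background on all 8 arrays. Of the 6 macrophage and leukocyte markers on the array, 4 were above background on all 8 arrays (Csf1r, Itgam, Lyz2 and Cd14). The other 2, Ptprc and Adgre1, were on none.

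RefSeq promoter windows were at hand for 22 of the 38 Hox genes (24 windows, build GRCm38.p6). The 250 bases before the start of transcription are shown for 3 of them, 5′ to 3′ on the strand of the gene, because they stand for the patterns described below: Hoxd4 and Hoxa2 had higher signals at 6 h, and Hoxd13, of the same cluster as Hoxd4, was above background on no array. Capitals mark matches on either strand to TATAAA (the TATA box), CCAAT (the CCAAT box), CACGTG (an E-box) or TGATTNAT (a site for Hox with Pbx). The Hoxd4 window lies at chr2:74721728-74721977 on the plus strand, the Hoxa2 window at chr6:52164832-52165081 on the minus strand and the Hoxd13 window at chr2:74667975-74668224 on the plus strand.
Hoxd4: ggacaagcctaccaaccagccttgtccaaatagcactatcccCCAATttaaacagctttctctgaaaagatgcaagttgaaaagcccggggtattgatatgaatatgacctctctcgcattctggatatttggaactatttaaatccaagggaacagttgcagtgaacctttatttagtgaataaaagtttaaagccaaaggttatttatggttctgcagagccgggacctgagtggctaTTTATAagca
Hoxa2: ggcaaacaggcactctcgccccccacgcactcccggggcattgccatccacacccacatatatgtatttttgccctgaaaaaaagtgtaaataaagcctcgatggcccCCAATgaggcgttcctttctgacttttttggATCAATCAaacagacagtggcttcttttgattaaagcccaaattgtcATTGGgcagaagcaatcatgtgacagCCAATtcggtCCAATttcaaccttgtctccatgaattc
Hoxd13: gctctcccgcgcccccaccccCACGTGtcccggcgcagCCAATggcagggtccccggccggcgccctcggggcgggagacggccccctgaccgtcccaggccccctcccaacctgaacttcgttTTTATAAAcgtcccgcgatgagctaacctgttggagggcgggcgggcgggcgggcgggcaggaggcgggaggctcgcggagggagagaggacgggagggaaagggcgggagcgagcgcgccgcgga

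Hoxd4 held 3 CpG dinucleotides in its window, Hoxa2 held 6 and Hoxd13 held 31. The median was 12.5 over the 24 Hox windows and 6 over all 32851 windows of the table. It was 12 in the 11 Hox windows of genes above background on all 8 arrays and 13 in the 9 windows of genes above background on none, so the CpG numbers of these genes were alike in the middle of their range. CCAAT was present in 14 of 24 Hox windows and in 33.8% of all windows. TATAAA was present in 4 Hox windows (12.4% of all), CACGTG in 4 (6.02% of all) and TGATTNAT in 2, those of Hoxa2 and Hoxd11 (2.82% of all). In Hoxd13 the TATAAA matches of both strands overlap. These matches are a description of the letters in the windows.

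A larger part of the genes with low and middle paralog numbers gave signal than of those at the posterior ends. Of the 38 genes, 17 were well above background on all 8 arrays, 16 on none and 5 on some. Over all 49094 genes and unnamed probes, 21625 had a probe above background on all 8 arrays, a similar share. Of the 7 genes with paralog numbers 1 to 3, 5 were above background on all 8 arrays and 2, Hoxb1 and Hoxd1, on none. Of the 15 with numbers 4 to 8, 10 were above background on all 8 arrays and 4 on none. Of the 16 genes with numbers 9 to 13, 2 were above background on all 8 arrays (Hoxc13 and Hoxd9) and 10 on none. Counting a gene in a group where both arrays were above background, 18 Hox genes were detected in control 3 h, 19 in knockdown 3 h, 18 in control 6 h and 19 in knockdown 6 h.

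**Figure D1:**
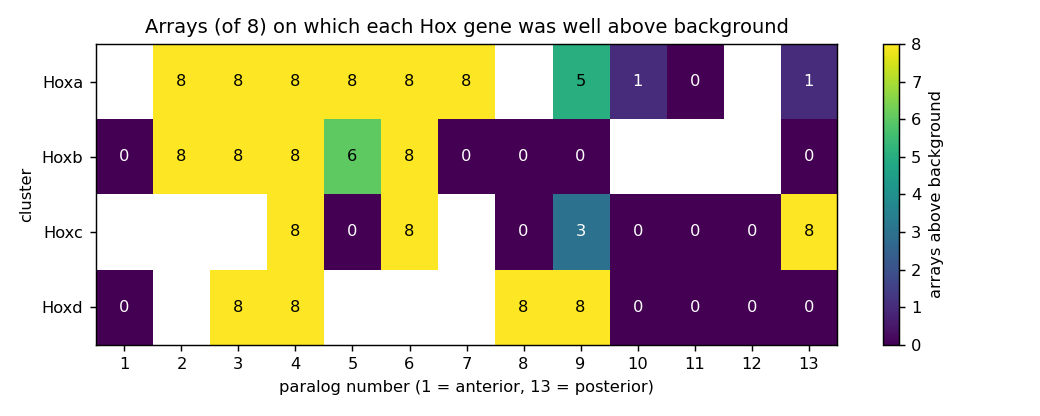
Each square is 1 Hox gene, placed by cluster (rows) and paralog number (columns), and its number and colour give the arrays, out of 8, on which it was well above background. No gene is described at the white squares. The unbroken run of 6 genes in Hoxa, from Hoxa2 to Hoxa7, and the zeros of Hoxd10 to Hoxd13 are the 2 ends of the pattern.

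In the Hoxa cluster, Hoxa2 to Hoxa7 were above background on all 8 arrays and Hoxa11 on none. Hoxa9 was above background on 5 arrays, those of both 3 h groups and 1 of knockdown 6 h. Hoxa10 was above background on 1 array, control 6 h replicate 2, where its spot lay in a bright patch and read -0.83 against -7.34 to -6.49 on the other arrays. Hoxa13 was above background on 1 array, knockdown 6 h replicate 1, at -2.40 against -7.26 to -6.22 elsewhere, and its other probe was above background on none. In the Hoxb cluster, Hoxb2, Hoxb3, Hoxb4 and Hoxb6 were above background on all 8 arrays, Hoxb5 on 6 (not on control 3 h), and Hoxb1, Hoxb7, Hoxb8, Hoxb9 and Hoxb13 on none.

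In the Hoxc cluster, Hoxc4, Hoxc6 and the last gene, Hoxc13, were above background on all 8 arrays. Hoxc9 was above background on 3 arrays, all at 6 h, and Hoxc5, Hoxc8, Hoxc10, Hoxc11 and Hoxc12 on none. In the Hoxd cluster, Hoxd3, Hoxd4, Hoxd8 and Hoxd9 were above background on all 8 arrays, and Hoxd1, Hoxd10, Hoxd11, Hoxd12 and Hoxd13 on none. A gene not well above background has only an upper bound, and transcripts that a probe does not cover were not measured. Probe sequences were not used here, so cross-hybridisation between paralogs was not tested.

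Between 3 h and 6 h most of the detected Hox genes had higher signals. Of the 20 Hox genes that could be tested (well above background on the 2 arrays of 1 group or more), 15 rose and 2 fell at a limma adjusted p under 0.05, averaged over both supernatants. Among all 25799 features tested, 21.2% rose and 30.7% fell. The median change of the 20 Hox genes was 0.64 on the log2 scale, beside -0.09 for all features. Hoxc9 passed the filter only through knockdown 6 h and Hoxa9 only through the 3 h groups, the groups where each was high, so their calls support no direction. Of the 17 Hox genes above background on all 8 arrays, 13 rose and 1 fell (median 0.53), and of all 21624 features above background on all 8 arrays 22.8% rose and 31.4% fell (median -0.07). These are changes relative to the 75th percentile of the array, and the 8 spike-in probes had a median of -0.23 on the same scale. With the array median as the reference, 12 Hox genes rose and 2 fell, beside 3859 and 11825 of all 25799 features. With no scaling 13 Hox genes rose and 0 fell, beside 5025 and 3977 of all features. With quantile normalization 14 rose and 2 fell, beside 6054 and 7887. In bulk RNA, fewer cells of a type and less RNA per cell cannot be told apart.

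All 6 h arrays lay above all 3 h arrays for 13 of the 20 Hox genes (19.6% of all features), and below them for 1, Hoxb2 (28.3% of all features). The 13 include Hoxc9, which entered the test only through its bright 6 h group, so its order supports no direction. In control supernatant 12 Hox genes rose and 1 fell (16.3% and 23.6% of all features), with a median change of 0.63. In knockdown supernatant 13 rose and 0 fell (17.7% and 22.2% of all features), with a median of 0.64. In both supernatants 12 of the genes rose: Hoxa2, Hoxa4, Hoxa7, Hoxb4, Hoxb5, Hoxb6, Hoxc4, Hoxc6, Hoxc9, Hoxc13, Hoxd4 and Hoxd9, with the limit on Hoxc9 given above. The share of all features that rose in both supernatants was not counted, and it can be at most the 16.3% of control supernatant. Among genes above background on all 8 arrays, 4 of 6 Hoxa genes rose averaged over supernatants (median 0.41), and 2 of 4 Hoxb genes (0.34). So did 3 of 3 Hoxc genes (1.43) and 4 of 4 Hoxd genes (0.42), while 1 Hoxb gene fell. Of all features above background on all 8 arrays 22.8% rose and 31.4% fell. The rises of Hoxa3, Hoxa4, Hoxd3 and Hoxd8 were lost under some alternatives. By paralog number, the median of these all-array Hox genes was 0.26 for 1 to 3, 0.82 for 4 to 8 and 0.70 for the 2 genes of 9 to 13. Differences between clusters or paralog numbers were not tested.

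**Figure D2:**
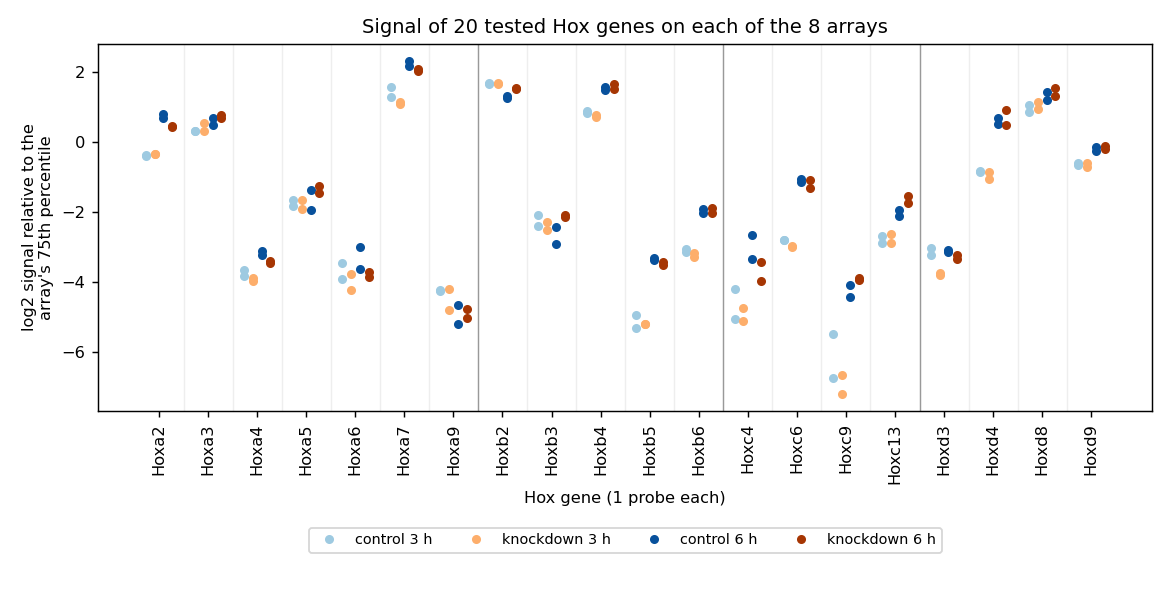
Points give the log2 signal of each tested Hox gene, relative to the 75th percentile of its array, on each of the 8 arrays (2 per group). Dark points (6 h) lie above pale points (3 h) of both supernatants for 13 genes, and Hoxb2 shows the opposite order. The 13 include Hoxc9, which passed the filter only through knockdown 6 h. Vertical positions of different genes are not comparable.

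In the Hoxa cluster, Hoxa2, which sets the identity of the second branchial arch, read -0.36 and -0.41 in control 3 h, -0.35 and -0.35 in knockdown 3 h, 0.68 and 0.80 in control 6 h, and 0.43 and 0.45 in knockdown 6 h. The 3 h groups sat together, and at 6 h both control arrays were above both knockdown arrays. The rise was 1.13 ± 0.07 in control supernatant (adjusted p = 0.000195, limma) and 0.79 ± 0.07 in knockdown supernatant (adjusted p = 0.00054). The difference between these rises did not pass the test (-0.34, adjusted p = 0.464).

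Hoxa3 read 0.31 and 0.30 in control 3 h, 0.30 and 0.55 in knockdown 3 h, 0.68 and 0.49 in control 6 h, and 0.69 and 0.77 in knockdown 6 h. Of the 6 h arrays, control 6 h replicate 2 lay within the range of the 3 h arrays. The averaged rise of 0.29 ± 0.08 (adjusted p = 0.0242, limma) did not pass within either supernatant, and it was lost without any 1 of 6 arrays (adjusted p = 0.0506 to 0.0732) and with median scaling or no filter, the exceptions among arrays being knockdown 3 h replicate 2 and control 6 h replicate 2.

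Hoxa4 had low signals of -3.83 and -3.65 in control 3 h, -3.88 and -3.96 in knockdown 3 h, -3.23 and -3.10 in control 6 h, and -3.46 and -3.41 in knockdown 6 h. The 6 h arrays were again above the 3 h arrays. The rise of 0.53 ± 0.06 (adjusted p = 0.000914, limma) became 0.13 (adjusted p = 0.14) under normexp background correction, which adds a constant that shrinks differences of dim probes. In knockdown supernatant alone the rise was also lost under the 3 other scalings and without knockdown 3 h replicate 2 (adjusted p = 0.0527).

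Hoxa7, a gene of the thoracic region, read 1.56 and 1.28 in control 3 h, 1.07 and 1.14 in knockdown 3 h, 2.18 and 2.32 in control 6 h, and 2.09 and 2.03 in knockdown 6 h. At both times the control arrays were above the knockdown arrays, and all 6 h arrays were above all 3 h arrays. Hoxa7 rose by 0.89 ± 0.08 (adjusted p = 0.000281, limma), or 1.86-fold.

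Hoxa9, the most posterior Hoxa gene tested, read -4.22 and -4.25 in control 3 h, -4.19 and -4.79 in knockdown 3 h, -5.19 and -4.66 in control 6 h, and -4.78 and -5.02 in knockdown 6 h. The groups overlapped, and at 6 h neither control array and 1 of 2 knockdown arrays were above background, so most 6 h values are only bounds. The difference did not pass in control (at least 1.19-fold lower at 6 h, adjusted p = 0.0782, limma) or knockdown supernatant (adjusted p = 0.245). The averaged value computed from the signals as read was -0.55 ± 0.18 (adjusted p = 0.0441), and this call was lost without any 1 of 6 arrays (adjusted p = 0.0691 to 0.12), with the replicate block (0.0687), array weights, no scaling or no filter, the exceptions among arrays being knockdown 3 h replicate 2 and control 6 h replicate 2. Hoxa5 and Hoxa6 did not pass, at 0.26 ± 0.15 and 0.29 ± 0.20 (adjusted p = 0.191 and 0.262), and their arrays overlapped between the times.

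In the Hoxb cluster the genes changed in both directions. Hoxb2, a hindbrain gene, read 1.69 and 1.64 in control 3 h, 1.66 and 1.67 in knockdown 3 h, 1.30 and 1.26 in control 6 h, and 1.54 and 1.51 in knockdown 6 h. The 3 h arrays were nearly equal, and at 6 h the control arrays were the lowest. The change was -0.39 ± 0.06 in control supernatant (adjusted p = 0.0036, limma) and -0.13 ± 0.06 in knockdown supernatant (adjusted p = 0.116), and the difference between these changes did not pass the test (0.25, adjusted p = 0.512). Without scaling, the averaged change of -0.26 ± 0.04 became -0.15 (adjusted p = 0.369).

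Hoxb3 was read by 2 probes above background on all 8 arrays. The brighter one gave -2.09 and -2.40 in control 3 h, -2.29 and -2.51 in knockdown 3 h, -2.90 and -2.42 in control 6 h, and -2.13 and -2.09 in knockdown 6 h. The groups overlapped, with knockdown 6 h at the upper end and control 6 h at the lower. The averaged change with time was -0.06 ± 0.14 (adjusted p = 0.728, limma). The other probe read -3.20 and -3.11 in control 3 h, -3.54 and -3.53 in knockdown 3 h, -3.65 and -3.76 in control 6 h, and -3.44 and -3.34 in knockdown 6 h, so by both probes control was lower at 6 h and knockdown was higher.

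Hoxb4, known for its effect on the renewal of blood stem cells, read 0.83 and 0.88 in control 3 h, 0.72 and 0.78 in knockdown 3 h, 1.57 and 1.49 in control 6 h, and 1.50 and 1.65 in knockdown 6 h. The 2 times did not overlap and the 2 supernatants did at 6 h. Hoxb4 rose by 0.75 ± 0.05 (adjusted p = 0.000144, limma), or 1.68-fold.

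Hoxb5 and Hoxb6, middle genes of the cluster, had larger changes from lower signals. Hoxb5 read -4.95 and -5.30 in control 3 h (neither above background), -5.20 and -5.20 in knockdown 3 h, -3.38 and -3.30 in control 6 h, and -3.44 and -3.51 in knockdown 6 h. It rose at least 3.24-fold in control supernatant (adjusted p = 0.000269, limma) and by 1.73 ± 0.12, or 3.31-fold, in knockdown supernatant (adjusted p = 0.000315). "At least" sets the bright group's mean against the higher of the dim probe's own signal and the lowest signal that was above background on that array.

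Hoxb6 read -3.05 and -3.13 in control 3 h, -3.17 and -3.28 in knockdown 3 h, -1.90 and -2.04 in control 6 h, and -2.03 and -1.88 in knockdown 6 h. The times were far apart compared with the spread within groups. It rose by 1.19 ± 0.06 (adjusted p = 5.58e-05, limma), or 2.29-fold. Under normexp the averaged rises were 0.51 for Hoxb5 and 0.58 for Hoxb6, both still past the threshold.

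The 3 Hoxc genes above background on all 8 arrays rose in both supernatants. Hoxc4 read -4.20 and -5.06 in control 3 h, -5.12 and -4.75 in knockdown 3 h, -2.66 and -3.34 in control 6 h, and -3.97 and -3.44 in knockdown 6 h. The times did not overlap, but the 2 arrays of a group lay far apart. The averaged rise was 1.43 ± 0.27 (adjusted p = 0.00606, limma), and 0.50 (adjusted p = 0.0078) under normexp. Its rise in control supernatant was lost without control 3 h replicate 2 or control 6 h replicate 1 (adjusted p = 0.0796 and 0.0663), and with no filter or its 4 arrays alone. Its rise in knockdown supernatant was lost without any 1 of the 4 knockdown arrays (adjusted p = 0.0737 to 0.195), with the replicate block (0.0715), quantile normalization (0.0672) or no filter (0.118), and under normexp, where it was 0.32 (0.161).

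Hoxc6, whose anterior limit marks the start of the thorax, had the smallest adjusted p of the Hox genes tested in this comparison. It read -2.80 and -2.81 in control 3 h, -2.97 and -3.00 in knockdown 3 h, -1.05 and -1.14 in control 6 h, and -1.31 and -1.09 in knockdown 6 h. The gap between the times was many times the spread within a group. Hoxc6 rose by 1.75 ± 0.06 (adjusted p = 2.12e-05, limma), or 3.36-fold, with 1.71 ± 0.09 in control and 1.78 ± 0.09 in knockdown supernatant. Under normexp the rise was 1.17.

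Hoxc9 came above background only at 6 h, on 1 of 2 control and 2 of 2 knockdown arrays. It read -6.74 and -5.48 in control 3 h, -7.19 and -6.65 in knockdown 3 h, -4.09 and -4.43 in control 6 h, and -3.93 and -3.87 in knockdown 6 h. No 3 h value was well above background, so each is only a bound. In knockdown supernatant the 6 h signal was at least 3.76-fold higher (adjusted p = 0.00286, limma), but the gene entered the test only because this group was bright. In control supernatant 1 of the 2 arrays at 6 h was itself only a bound, so no fold is given (adjusted p = 0.0167). Under normexp both calls were lost (0.23 in control and 0.34 in knockdown supernatant, adjusted p = 0.174 and 0.0545). The control call was also lost without control 6 h replicate 1 (0.0623), with no filter, with its 4 arrays alone and with array weights.

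Hoxc13, the last gene of its cluster and a regulator of hair and nail keratins, read -2.68 and -2.89 in control 3 h, -2.64 and -2.88 in knockdown 3 h, -1.95 and -2.12 in control 6 h, and -1.54 and -1.74 in knockdown 6 h. The 3 h groups overlapped and at 6 h both knockdown arrays were above both control arrays. It rose by 0.93 ± 0.10 (adjusted p = 0.000516, limma), or 1.91-fold, and by 0.62 under normexp.

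Dim probes as a class also read higher at 6 h on this scale. The 23295 features left out by the filter on background had a median change of 0.45, and the 18 Hox genes among them had a median of 0.52 (range -0.05 to 1.91). When every probe was tested, limma called 0 of the 18 and 1231 of the 23295. The 1.91 belongs to Hoxa10, whose spot on control 6 h replicate 2 read -0.83. Its change was 0.49 without that array, and the next highest value was 1.28. The part of this shift in the rises of Hox genes with lower signals (Hoxa4, Hoxb5, Hoxb6, Hoxc4, Hoxc6, Hoxc9, Hoxc13 and Hoxd3) was not tested. Of the 8 Hox genes with the highest signals, Hoxa2, Hoxa7, Hoxb4 and Hoxd4 rose by 0.88, 0.92, 0.72 and 1.36 under normexp, with adjusted p from 1.38e-05 to 4.6e-05. Hoxa3, Hoxd8 and Hoxd9 rose by 0.32, 0.41 and 0.37, and Hoxb2 fell by 0.19 (adjusted p = 0.01).

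**Figure D3:**
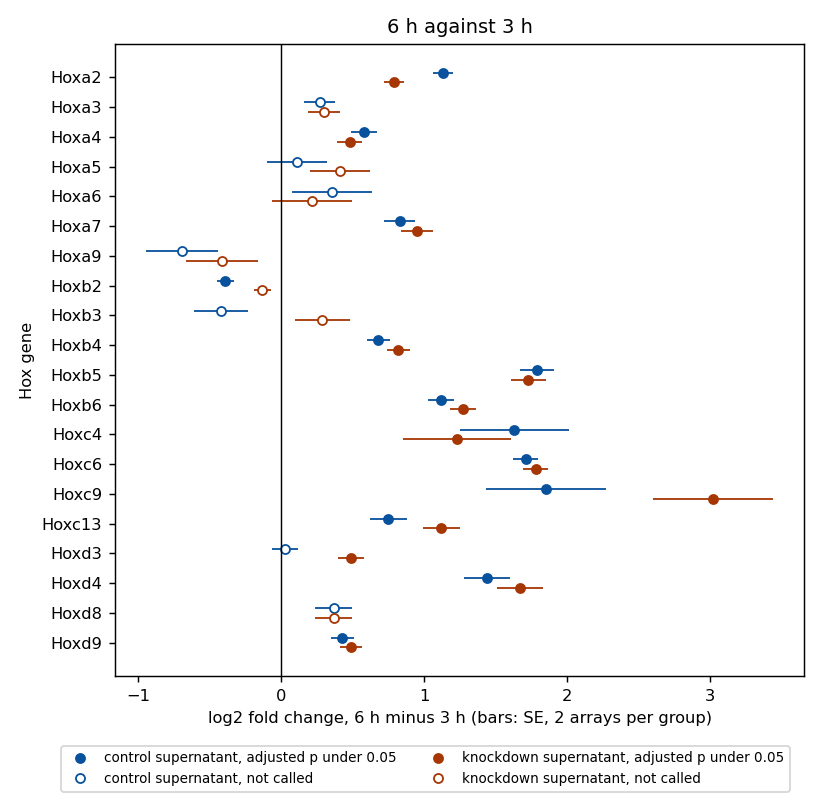
Points give the log2 change from 3 h to 6 h of each tested Hox gene in control (blue) and knockdown (brown) supernatant, with bars for the standard error. Filled points have a limma adjusted p under 0.05 and open points do not. The plotted signals differ by -0.69 for Hoxa9 in control supernatant, where the 6 h arrays were not well above background, to 3.02 for Hoxc9 in knockdown supernatant, where the 3 h arrays were not.

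In the Hoxd cluster, Hoxd4, a gene of the hindbrain and neck, read -0.82 and -0.87 in control 3 h, -0.87 and -1.06 in knockdown 3 h, 0.69 and 0.50 in control 6 h, and 0.47 and 0.92 in knockdown 6 h. The times did not overlap, and the supernatants overlapped at 6 h. Hoxd4 rose by 1.55 ± 0.12 (adjusted p = 0.000163, limma), or 2.94-fold. Its promoter window, shown above, has fewer CpG dinucleotides than the median Hox window. It holds 1 TATAAA match close to the start, on the strand opposite to the gene. A link between the window and the rise was not tested.

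Hoxd8 read 0.86 and 1.05 in control 3 h, 1.15 and 0.95 in knockdown 3 h, 1.21 and 1.43 in control 6 h, and 1.31 and 1.53 in knockdown 6 h. The times came close to each other without overlapping. The rise of 0.37 ± 0.10 (adjusted p = 0.0203, limma) was lost without control 3 h replicate 1, knockdown 3 h replicate 2 or knockdown 6 h replicate 2 (adjusted p = 0.0678, 0.068 and 0.06), and with median scaling, no scaling or no filter.

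Hoxd9 read -0.67 and -0.61 in control 3 h, -0.71 and -0.61 in knockdown 3 h, -0.27 and -0.15 in control 6 h, and -0.21 and -0.13 in knockdown 6 h. The groups of each time overlapped and the times did not. The rise was 0.46 ± 0.05 (adjusted p = 0.000855, limma), and within control supernatant it was lost with median or no scaling.

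Hoxd3, the neighbour of Hoxd4, read -3.24 and -3.04 in control 3 h, -3.74 and -3.81 in knockdown 3 h, -3.13 and -3.09 in control 6 h, and -3.34 and -3.24 in knockdown 6 h. The 2 knockdown 3 h arrays were the lowest, and the other groups lay close together. With time it changed by 0.03 ± 0.09 in control supernatant (adjusted p = 0.811, limma) and by 0.49 ± 0.09 in knockdown supernatant (adjusted p = 0.00735). The averaged rise of 0.26 ± 0.06 (adjusted p = 0.0153) was lost without knockdown 3 h replicate 2 or knockdown 6 h replicate 2 (adjusted p = 0.0567 and 0.0512) under the 3 other scalings and with no filter, and turned to -0.04 (adjusted p = 0.62) under normexp.

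Hoxd3 was also the one Hox gene called between the supernatants. Averaged over both times it was lower after knockdown supernatant, with a difference of -0.40 ± 0.06 (adjusted p = 0.034, limma), and 0 Hox genes were higher. Among all features, 0.965% were lower and 2.16% higher. The call was lost without any 1 of 7 arrays (adjusted p = 0.0515 to 0.14), the exception being control 6 h replicate 2, with the replicate block (0.0579), and also under the 3 other scalings, normexp and no filter. The change was -0.63 ± 0.09 at 3 h (adjusted p = 0.0745) and -0.17 ± 0.09 at 6 h (adjusted p = 0.34). The difference between the times did not pass (0.46, adjusted p = 0.45).

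At 3 h alone 0 of 20 Hox genes were called between the supernatants, and limma called 0.244% of all features. An unadjusted p under 0.05 was reached by 2 of the 20 and by 10.6% of all features. At 6 h limma called 0 Hox genes and 2.3% of all features, with 5 of 20 Hox genes and 19.3% of all features at an unadjusted p under 0.05. For the difference between the 2 times limma called 0 Hox genes and 0 of all features, with 4 of 20 and 8.81% at an unadjusted p under 0.05. The median supernatant change of the Hox genes was -0.13 at 3 h and 0.03 at 6 h.

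For the Hox genes that did not pass, the 95% intervals of the averaged supernatant change show what size could be seen. Hoxd9 had -0.12 to 0.14 and Hoxb4 -0.17 to 0.10, and Hoxc4 had a wide -1.17 to 0.16. Hoxa2, Hoxa4 and Hoxa7 had intervals below 0, at -0.25 to -0.02, -0.38 to -0.07 and -0.45 to -0.06, with adjusted p of 0.196, 0.133 and 0.157. Hoxb2 had 0.02 to 0.23 (adjusted p = 0.181), and Hoxc6, Hoxc13 and Hoxd8 had intervals that held 0. A value that missed the threshold does not show that the supernatants acted alike. Hoxb3 had the highest value at 6 h, 0.55 ± 0.19 (adjusted p = 0.21), and Hoxa2 the smallest adjusted p there, at -0.30 ± 0.07 (adjusted p = 0.0908).

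**Figure D4:**
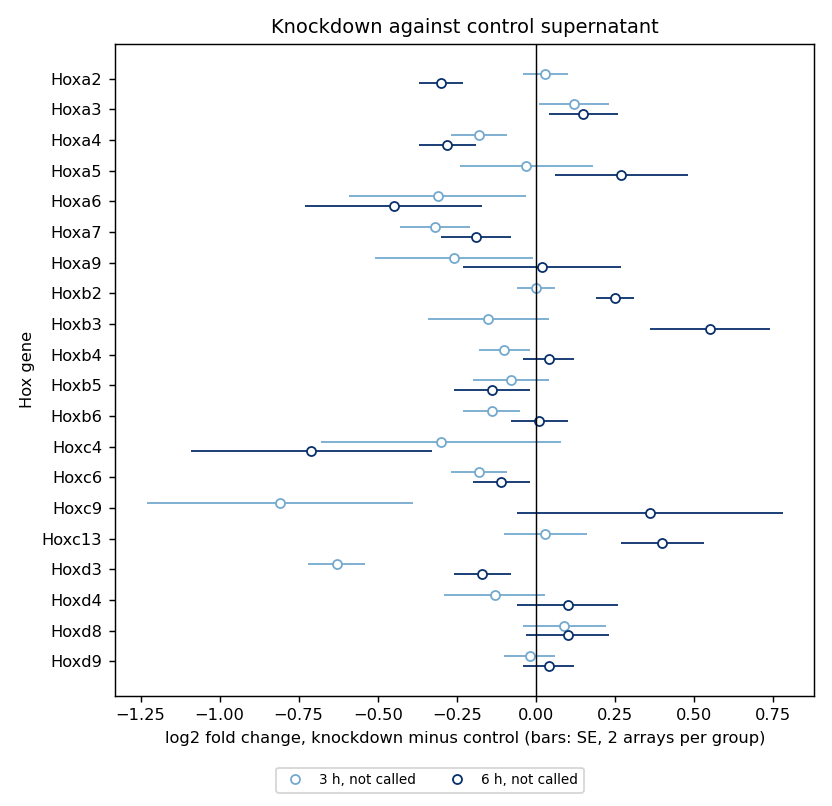
Points give the log2 change from control to knockdown supernatant of each tested Hox gene at 3 h (pale) and 6 h (dark), with bars for the standard error, and all points are open because none had a limma adjusted p under 0.05 at a single time. Hoxd3 at 3 h, at -0.63, lies apart from most others, and Hoxc9 at -0.81 was not well above background in either 3 h group.

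Among partners and regulators of Hox genes, 3 of 9 TALE cofactors, all tested, rose and 3 fell between 3 h and 6 h (median -0.02), where 21.2% of all features rose and 30.7% fell. Meis1, a cofactor that binds DNA with Hox and Pbx proteins, read 2.44 and 2.51 in control 3 h, 2.38 and 2.44 in knockdown 3 h, 3.90 and 3.77 in control 6 h, and 3.64 and 3.66 in knockdown 6 h. It rose by 1.30 ± 0.05 (adjusted p = 2.55e-05, limma) with no overlap between the times. Pbx2 rose by 1.09 ± 0.05, while Pknox1 changed by -0.78 ± 0.06 and Pknox2 by -0.55 ± 0.08. Between the supernatants, averaged over times, 0 of the 9 were called by limma, with 2 at an unadjusted p under 0.05, as were 19.7% of all features.

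Of 26 Polycomb and Trithorax genes, 24 were tested, and 6 rose and 8 fell with time (median -0.03), shares close to those of all features. Cbx8, a chromodomain subunit of Polycomb complex PRC1, rose by 1.05 ± 0.05 (adjusted p = 4.13e-05, limma). Phc2, another PRC1 subunit, changed by -1.26 ± 0.05, and Wdr5, a core subunit of the Trithorax methyltransferases, by -1.25 ± 0.05. Dot1l, the histone H3K79 methyltransferase, read 1.63 and 1.57 in control 3 h, 2.19 and 2.23 in knockdown 3 h, 0.32 and 0.23 in control 6 h, and 0.94 and 0.93 in knockdown 6 h. It changed by -1.30 ± 0.04 with time, and averaged over times it was higher after knockdown supernatant, by 0.64 (adjusted p = 0.00448), which was lost with no scaling or no filter (0.0573 and 0.0548). At 3 h alone the difference was 0.61 ± 0.06 (adjusted p = 0.0428), and this call was lost with the replicate block (0.103), with median or no scaling, with no filter, with its 4 arrays alone and without any 1 of the 8 arrays (0.0597 to 0.305). At 6 h alone it was 0.66 ± 0.06 (adjusted p = 0.0121), lost with no scaling, no filter, its 4 arrays alone and without any 1 of the 4 knockdown arrays (0.0502 to 0.0735). Dot1l was the one of the 24 tested genes of its list called between the supernatants averaged over times. Of all features, 2.16% were higher and 0.965% lower in that comparison.

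Retinoic acid switches on anterior Hox genes through the Rar and Rxr receptors, and Cdx factors act on posterior ones. Of 21 genes of this pathway 13 were tested, and 1 rose and 7 fell with time (median -0.33), beside 21.2% and 30.7% of all features. Those with the smallest p were Dhrs3, a retinaldehyde reductase (-1.27 ± 0.06), Crabp2, which carries retinoic acid to its receptor (-0.63 ± 0.05), the receptor Rxra (-0.63 ± 0.05), and Cyp26b1, which degrades retinoic acid (-0.69 ± 0.07). The other members that fell were the receptor Rara (-0.44), the retinaldehyde dehydrogenase Aldh1a1 (-0.48) and Cdx1 (-0.17), and the one that rose was Rdh10, a retinol dehydrogenase (0.42 ± 0.05, adjusted p = 0.000816). Between the supernatants, averaged over times, 0 of 13 were called by limma, with 6 at an unadjusted p under 0.05, beside 19.7% of all features.

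Of 40 other transcription factors with positional expression in limb, head or trunk, 23 were tested and 14 were above background on no array. With time 4 rose and 6 fell (median 0.00), where 21.2% of all features rose and 30.7% fell. Lhx2 rose by 0.86 ± 0.07 and Emx2 by 0.61 ± 0.07, and Msx1 changed by -0.60 ± 0.07 and Dlx2 by -0.57 ± 0.06. Foxf2 was the one of the 23 called between the supernatants averaged over times, at 0.30 ± 0.05 (adjusted p = 0.0486, limma). Of all features, 2.16% were higher and 0.965% lower in that comparison. The Foxf2 call was lost without any 1 of the 8 arrays (values of 0.26 to 0.34), with the replicate block (adjusted p = 0.0785), array weights, no scaling and no filter. Among transcripts antisense to Hox genes, Hoxd3os1 rose by 0.55 ± 0.08 with time (adjusted p = 0.00187), next to Hoxd3, and Hoxa11os was above background on 2 arrays and not tested.

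**Figure D5:**
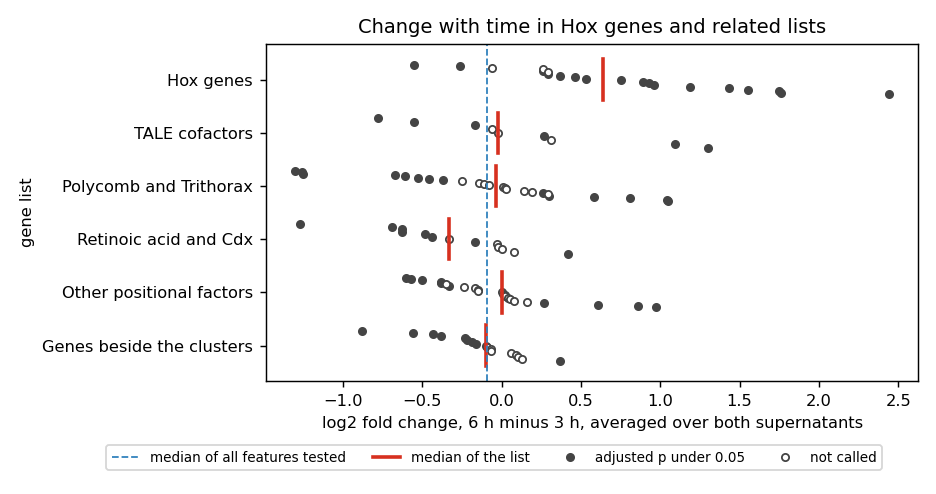
Each point is the log2 change from 3 h to 6 h, averaged over both supernatants, of 1 tested gene of a list, filled where the limma adjusted p was under 0.05. Red bars are list medians and the dashed line is the median of all features, -0.09. The Hox bar stands at 0.64 and the retinoic acid bar at -0.33, with the TALE, Polycomb and Trithorax, and other positional factors between -0.03 and 0.00.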

How the data were processed

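RNA of 8 samples (4 groups of 2) was hybridised to one-colour Agilent arrays. Per the file headers and the submitters' processing notes, the authors extracted spots with Agilent Feature Extraction 10.7.3.1. The deposited files hold processed intensity, with background subtracted, and flags for spots well above background, saturated or outlying. The authors' deposited value table holds log2 values of the same arrays, whose correlation with the scanner values was 1.00 on each array. Its column medians ran from -4.23 to -3.96, and it was used as an alternative.

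Probes were named through RefSeq accessions (27235) or symbols (20), and 28426 stayed unnamed. A probe entered the tests if well above background on the 2 arrays of 1 group or more, and the brightest tested probe stood for its gene, giving 25799 features. Log2 processed signal minus the array's 75th percentile was fitted with limma 3.58.1 in R 4.3.3 as 4 group means (4 residual and 1.74 prior degrees of freedom), with Benjamini-Hochberg adjustment over all features. The fit was tested on simulated data. Of the Hox genes 1 is not reported here and every other was named; values on each array are given for those called in at least 1 of 7 comparisons or with the 2 smallest p of a cluster in an averaged comparison, and up to 4 genes of each list by p. The members, lists and tests were chosen with earlier results of these data known. Normexp (offset 50) was run on median spot and background signals, not on mean signals as planned. Array coordinates are on another build than the RefSeq tables and were not used. The number of arrays limits precision. Alternatives changed the scaling, background correction, filter, probe choice, source of values, arrays in the fit, replicate block, array weights and bright patches, and left out each array in turn.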

Additional observations from a re-analysis of the deposited data

How the results depend on the processing

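Of the 17 Hox genes called between 3 h and 6 h averaged over supernatants, 11 kept their direction and their side of the threshold under each alternative that could be fitted for them, among them Hoxc9, which passed the filter only through its bright group. The other 6 (Hoxa3, Hoxa4, Hoxa9, Hoxb2, Hoxd3 and Hoxd8) lost the call under at least 1, and 1 of these, Hoxd3, reversed under normexp, to -0.04 averaged and -0.02 in knockdown supernatant. The count of 17 ranged from 13 to 17 without 1 array and from 13 to 17 under the other alternatives. Between the supernatants, the count at 3 h went from 0 to 1 (Hoxd3) with probes above background on all 8 arrays and with array weights, and at 6 h from 0 to 2 (Hoxb2 and Hoxc13) with median scaling. The averaged count of 1 became 0 with median scaling, no scaling, quantile normalization, normexp, no filter and the replicate block, and ranged from 0 to 1 without 1 array. The differences between replicate 1 and replicate 2 of a group correlated at -0.05 to 0.09 between groups over all features. No broad pairing by number was seen, and a pairing that touched few genes was not tested. With the replicate block, 16 Hox genes were called for time (Hoxa9 lost), 13 in control and 12 in knockdown supernatant. The cause of the lost calls was not tested.

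Counts over all features depended on the settings. They were 63 for supernatant at 3 h (0 to 310), 593 at 6 h (0 to 1955), 807 averaged (76 to 2000, the highest without control 6 h replicate 2), 0 for the difference between the times (0 to 294), 13386 for time averaged (9002 to 15684), 10293 in control (5739 to 12383) and 10300 in knockdown supernatant (5498 to 12164). Of the averaged time calls 40.8% were higher in the main setting, 24.6% with median scaling and 55.8% with no scaling, and the median of all features moved from -0.09 to -0.24 and 0.02. In single supernatants the share was 40.8%, 21.4% and 50% for control, and 44.3%, 32.8% and 67% for knockdown.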

Other observations

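The genes that flank the clusters on the chromosome were measured on the same arrays. Taking the 3 nearest protein-coding genes on each side of each cluster in the RefSeq table, a list chosen after values had been seen, 21 of 24 were on the array under these names and 17 were tested. Between 3 h and 6 h, averaged over supernatants, 1 of the 17 rose and 8 fell, beside 21.2% and 30.7% of all features, with a median of -0.10 beside -0.09 for all features. Smug1, a DNA glycosylase gene beside Hoxc, rose by 0.37 ± 0.05 (adjusted p = 0.00118, limma). Snx11, a sorting nexin gene beside Hoxb, changed by -0.88 ± 0.05 (adjusted p = 6.37e-05), Lnpk, beside Hoxd, by -0.56 ± 0.07, and Skap2, beside Hoxa, by -0.43 ± 0.05. The homeobox genes Evx1 and Evx2, which adjoin the posterior ends of Hoxa and Hoxd, were above background on no array, as were most posterior Hox genes. Snx11 had group means of 3.04 in control 3 h, 3.05 in knockdown 3 h, 1.94 in control 6 h and 2.40 in knockdown 6 h. Between the supernatants at 6 h it was the one of the 17 called (0.46 ± 0.07, adjusted p = 0.0369, limma), beside 2.3% of all features. The call was lost with the replicate block (adjusted p = 0.0787), no scaling, quantile normalization and normexp, among others. It was also lost without any 1 of 7 arrays (values of 0.45 to 0.50), the exception being control 6 h replicate 2.

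Some cell type markers changed as well. Between 3 h and 6 h, 3 of 5 tested adipocyte markers fell (Cebpa -0.63, Fabp5 -0.32 and Fabp4 -0.22). Of 7 preadipocyte and fibroblast markers 1 rose (Pdgfra 0.26) and 1 fell (Thy1 -0.24), where 21.2% of all features rose and 30.7% fell. Of 4 tested macrophage and leukocyte markers, Cd14 rose by 0.38 and Itgam changed by -0.37, and Cd14 was also higher after knockdown supernatant (0.47 ± 0.06, adjusted p = 0.0168, limma), a call lost with no scaling, with no filter and without any 1 of 6 arrays (0.0566 to 0.0862), the exceptions being those of control 6 h. Of 3 tested endothelial and muscle markers 0 were called for time by limma (1 at an unadjusted p under 0.05), and Cdh5, Myod1 and Myog were above background on no array. Of the marker calls for time, those of Fabp5 and Itgam were lost with no scaling and that of Cd14 with median scaling. Those of Fabp4 and Thy1 were lost with no scaling, quantile normalization or no filter, and that of Pdgfra with median or no scaling. The part of these markers in the Hox changes was not tested.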
